A study of Mus musculus with 4 samples.

Results

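The Remak and immature Schwann cell genes are a set of 10 genes, Gfap, Ncam1, L1cam, Cdh2, Cdh19, Fabp7, S100b, Foxd3, Ednrb and Dhh. They were found by their symbols in a table of 50593 mouse genes, each symbol matching 1 gene. This rule uses no measured value, but the genes were chosen with earlier results of these data known. The table holds RNA sequencing of sciatic nerve from 6-month-old mice of strain 129S1/SvImJ (given as Sv/129 background in the methods), 2 HSF V30M and 2 HSF WT mice by the sample labels, while the methods state n = 4 and leave unclear if this counts 1 group or both. HSF V30M mice carry a transgene for human TTR V30M, the transthyretin variant of a hereditary amyloid neuropathy, on an endogenous Ttr-null background. Both groups are described with a heterozygous deletion of Hsf1, the gene of a heat shock transcription factor, and HSF WT mice without the transgene, so by this description the comparison asks what differs in nerve with the transgene and the Ttr-null background together. For each gene the table gives 1 FPKM value per group (fragments per kilobase of a transcript, corrected for library depth), estimated over the libraries of the group. No value per mouse was used, so the differences have no replicate check, no spread between mice can be given, and no test between the groups was made.

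The value of 1 fragment could be read from genes with a single transcript, which gives the depth behind each FPKM. The HSF WT libraries differed 1.35-fold in depth and the HSF V30M libraries 1.18-fold, and the deeper HSF V30M library was 1.23 times as deep as the deeper HSF WT library. Hsf1 was at 7.94 FPKM in HSF V30M against 15.0 in HSF WT. Ttr was at 6.10 in HSF V30M against 0 in HSF WT. Hsf1 levels were thus unequal although the same heterozygous deletion is described for both groups, and the part of Hsf1 in the values given here was not tested. The groups are named as labelled throughout. Ttr does not check the labels, since reads of the human transgene could not be told apart from mouse Ttr.

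Remak cells are the Schwann cells that hold several thin axons in a bundle without making myelin. They keep many genes of the immature Schwann cell, which in development forms from neural crest through a precursor stage and then turns either to myelin or to the Remak fate. Cells that form myelin switch off Gfap, Ncam1 and L1cam, whereas S100b and Dhh are also made by myelinating cells, and several of the 10 genes are active in other cells of a nerve.

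Of the 10 genes, 7 had an entry among the RefSeq promoter sequences (GRCm38.p6), and Ncam1, Cdh2 and Cdh19 had none. The stretches upstream of Foxd3, S100b, Gfap and Fabp7 are shown because these 4 genes lay farthest from equal levels in the groups on the log2 scale used here. The first 3 cover the 150 bases before the RefSeq start of the gene, at chr4:99656149-99656298 (plus strand) for Foxd3, chr10:76253686-76253835 (plus strand) for S100b and chr11:102897201-102897350 (minus strand) for Gfap. That of Fabp7 covers 108 bases, from 150 to 43 before the start, at chr10:57784773-57784880 (plus strand). The RefSeq start of S100b lies upstream of the GENCODE gene start given with its values, and those of Gfap and Fabp7 lie inside the GENCODE gene. Capitals mark matches to the CCAAT box, which reads ATTGG on the opposite strand.
Foxd3: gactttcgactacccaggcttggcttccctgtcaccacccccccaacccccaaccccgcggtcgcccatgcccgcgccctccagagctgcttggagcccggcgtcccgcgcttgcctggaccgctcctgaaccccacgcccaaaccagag
S100b: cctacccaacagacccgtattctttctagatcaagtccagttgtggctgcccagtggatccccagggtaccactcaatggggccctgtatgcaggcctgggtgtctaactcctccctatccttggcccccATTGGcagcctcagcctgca
Gfap: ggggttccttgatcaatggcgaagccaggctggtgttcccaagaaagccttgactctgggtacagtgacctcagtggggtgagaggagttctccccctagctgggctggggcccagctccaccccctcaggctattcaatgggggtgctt
Fabp7: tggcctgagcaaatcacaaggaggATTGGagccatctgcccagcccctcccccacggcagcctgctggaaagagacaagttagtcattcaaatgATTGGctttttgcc

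In the 250 bases before the RefSeq start, from which all distances are counted, both strands were searched for 6 short motifs, none of which contains another: the TATA box (letters TATAAA), the CCAAT box (its name gives its letters), the GC box (letters GGGCGG), the first SOX protein core (letters ACAAAG), the second SOX protein core (letters ACAATG) and the core bound by the Notch effector RBPJ (letters GTGGGAA). These motifs occur in 12.4%, 33.8%, 32.7%, 16.5%, 10.7% and 5.42% of the 32817 promoter windows, in that order. Fabp7 has 2 CCAAT matches, 126 to 122 and 56 to 52 bases before the start, and S100b has 2, at 202 to 198 and 20 to 16 bases. Ednrb has 2 CCAAT matches and Dhh 4 GC box matches. L1cam has 2 windows, from separate starts, 1 with a GC box match at 26 to 21 bases and the other with a GC box match at 223 to 218 and a CCAAT match at 239 to 235. The windows of Foxd3 and Gfap hold none of the searched motifs, and no searched window of the set holds a TATA box, SOX or RBPJ match. The Foxd3 window is rich in bases G and C (65.6%, median of all windows 52.4%) with 21 CG pairs (median 6), while Gfap and S100b have 2 CG pairs each. CCAAT matches thus occur in a gene higher in HSF V30M (S100b) and in genes lower in it (Fabp7 and Ednrb). Windows of so few genes cannot show if the genes higher and lower in HSF V30M separate by these motifs. A match is a description of the sequence and not a bound site.

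All 10 genes had a mean FPKM of at least 1, the minimum used for counts. Differences are given as log2((HSF V30M + 1)/(HSF WT + 1)), a scale that understates the difference of weakly expressed genes, and a gene counted as past the fold when this ratio was over 1.5-fold. Foxd3, S100b and Cdh2 were past the fold with higher levels in HSF V30M, 3 of 10 genes, where 8.22% of the 15620 genes above the minimum were. Gfap, Fabp7 and Ednrb were past it with lower levels, again 3 of 10, against 8.44% of all genes. In either direction 6 of 10 were past the fold (60.0%), against 16.7% of all genes. All 10 code for proteins, and among the 12715 protein-coding genes above the minimum the shares were 5.03% higher, 5.32% lower and 10.3% in either direction. Because the 10 genes were chosen with earlier results of these data known, these shares are a description and no measure of an excess. Ncam1, L1cam, Cdh19 and Dhh lay within 1.5-fold. With a fold over 2, 1 gene was higher (Foxd3), against 3.98% of all genes, and 2 were lower (Gfap, and Fabp7 at the edge with a log2 ratio of -1.00), against 3.94%. The set did not move in 1 direction: 5 genes had a higher and 4 a lower value in HSF V30M, Ncam1 was equal in the groups to 2 decimals, and the set had a median log2 ratio of 0.11 beside 0.00 over all genes (quartiles -0.22 and 0.23). In tissue RNA, fewer cells of a type and less RNA per cell cannot be told apart.

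**Figure D1:**
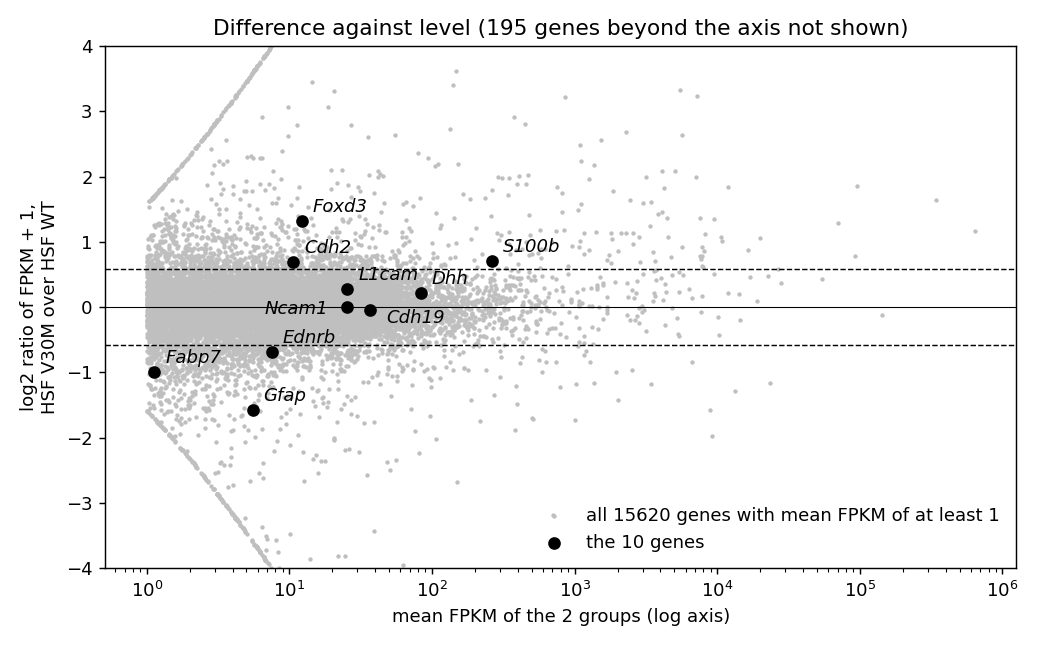
Each point is 1 gene, with its mean FPKM over the groups on a log axis and its log2 ratio of FPKM + 1, HSF V30M over HSF WT, on the other axis. Dashed lines mark 1.5-fold, grey points are all 15620 genes above the minimum (195 lie beyond the axis), and of the black points 3 lie above the upper line, 3 below the lower line and 4 between them.

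Among the filament and cytoplasmic proteins, Gfap and Fabp7 were lower in HSF V30M and S100b was higher. Gfap codes for glial fibrillary acidic protein, the intermediate filament of astrocytes and of Schwann cells that do not form myelin (ENSMUSG00000020932, chr11:102887336-102900912, minus strand, 9 exons in its longest transcript). It was at 2.28 FPKM in HSF V30M against 8.77 in HSF WT, a 3.85-fold difference and a log2 ratio of -1.57. These values rest on about 118 to 144 fragments in HSF V30M and 325 to 447 in HSF WT. Without a pseudocount the log2 ratio was -1.94, with a 95% interval of -2.26 to -1.63 from an exact binomial calculation. Such intervals, here and for the other genes, cover counting error only and leave out the spread between mice. The counting error of Gfap was thus far smaller than the difference between the groups. Its ratio stood at percentile 2.43 of all genes, and in its range of levels (mean FPKM 5 to 10) 8.13% of genes were past the fold with lower values. Such ranges, here and for the other genes, hold protein-coding and other genes together.

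The difference in Gfap was not shared by the other intermediate filament genes. Of 8 such genes, 7 passed the minimum and 0 were past the fold, with a median log2 ratio of 0.09. Vim, which codes for vimentin and is the most abundant of them, was at 1779.3 FPKM in HSF V30M against 1410.4 in HSF WT, and Nes (nestin) at 88.0 and 86.3. The largest ratios belonged to Prph, the peripherin of peripheral neurons, at 4.34 and 3.22, and to Vim, and the smallest to Des, the desmin of muscle, at 7.81 and 9.90. Since Gfap is also the classic astrocyte gene, markers of that cell were read: 4 of 6 passed the minimum with a median of -0.07, and the summed FPKM of all 6 was 45.9 in HSF V30M against 50.4 in HSF WT. Gja1, a connexin, was the most abundant of these at 21.2 and 20.8. Slc1a2, a glutamate transporter, was past the fold with a higher value at 2.68 and 1.16, while Slc1a3, another such transporter, was at 11.2 in HSF V30M with a log2 ratio of -0.48 and Aldh1l1, a folate enzyme, at 10.1 and 11.4. Aqp4, the water channel of astrocytes, was at 0 and 0.0231. The list thus held both expressed genes and genes near 0, and its part in the Gfap values was not tested.

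Fabp7 codes for brain lipid binding protein, a fatty acid carrier of radial glia and Schwann cell precursors (chr10:57784881-57788450, plus strand). It was the weakest of the 10 genes, at 0.420 FPKM in HSF V30M against 1.84 in HSF WT, a 4.38-fold difference that shrank to a log2 ratio of -1.00 with the pseudocount. Only about 5 to 8 fragments stood behind the HSF V30M value and 17 to 27 behind the HSF WT value. The log2 ratio without a pseudocount was -2.13, with a counting interval of -3.93 to -0.63. The direction therefore held against counting error, whereas the size of the difference was poorly fixed at this depth. At mean FPKM 1 to 2, 12.8% of all genes were past the fold with lower values.

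Other fatty acid binding proteins were listed beside it: Fabp1, Fabp2 and Fabp6 were at 0 in both groups, and the 3 that passed the minimum all had lower values in HSF V30M, with a median of -0.19 (-0.42 at a mean FPKM of at least 5). Fabp4, the adipocyte form and by far the most abundant, was at 462 and 722 FPKM and was past the fold. Fabp5, the epidermal form that is also made in glia, was at 25.3 and 29.0, and Fabp3, the heart form, at 1.75 and 1.78. Markers of fat cells also had lower values (given with the other cell types), and their part in the Fabp4 values was not tested.

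S100b codes for a calcium-binding protein used as a marker of Schwann cells of every kind (chr10:76253853-76261159, plus strand, 1 transcript of 3 exons). It was at 328 FPKM in HSF V30M against 201 in HSF WT, 1.63-fold higher. With about 9167 to 10814 fragments in HSF V30M and 3985 to 5367 in HSF WT it was the best measured of the 10 genes, and its log2 ratio of 0.71 had a counting interval of 0.65 to 0.76. Its level exceeded that of 99.4% of the expressed protein-coding genes in HSF V30M and 98.7% in HSF WT. At a mean FPKM of at least 100, 18.3% of genes were past the fold with higher values, a larger share than in the lower ranges. This share covers protein-coding and other genes together, and none was computed for the protein-coding genes of the range. Over all levels 5.03% of protein-coding genes were past the fold with higher values, against 8.22% of all genes.

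In the S100 family, 10 of 11 listed genes (the receptor gene Ager included) passed the minimum, 3 were past the fold with higher values and 0 with lower values, and the median was 0.19. The 3 genes were S100a9 (59.0 FPKM in HSF V30M against 13.8 in HSF WT), S100a8 (12.6 and 3.48) and S100a11 (47.7 and 24.7). S100a8 and S100a9 are the calprotectin genes of neutrophils. S100a6, the most abundant of the family, was at 807 and 757, and the smallest ratios were those of S100a10 (130 and 151) and S100a16 (70.1 and 76.8). The higher level of S100b was therefore not a property of the whole family.

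Among the adhesion molecules, Cdh2 was higher in HSF V30M, and the other 3 lay within 1.5-fold. Ncam1 codes for the neural cell adhesion molecule, an immunoglobulin-family protein on Remak cells and axons (chr9:49502136-49798925, minus strand, 7 transcripts). It was at 25.5 FPKM in both groups, with a log2 ratio of 0.00 and a counting interval of -0.12 to 0.12, the closest to equality of the 10 genes. L1cam codes for a related adhesion molecule that binds Ncam1 and itself (chrX:73853778-73896105, minus strand, 13 transcripts). It was at 28.1 FPKM in HSF V30M against 22.9 in HSF WT, with a log2 ratio of 0.28. Its counting interval without a pseudocount ran from -0.08 to 0.68, so a difference was not detectable if the shortest transcript carried the reads. The fragment number of L1cam spans 162 to 3547 in HSF V30M and 94 to 2349 in HSF WT because its transcripts differ widely in length. Exons of L1cam overlap those of Arhgap4 (2.98 and 2.86 FPKM) on the same strand, and exons of Ncam1 overlap an antisense gene, Gm11149 (0.660 and 0.548), whose reads could not be told apart without the strand.

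The partners of Ncam1 and L1cam were near equality too. Of 11 genes of this family and of polysialic acid, the sugar chain carried by Ncam1, 8 passed the minimum, 0 were past the fold and the median was -0.11. Ank3, an ankyrin that anchors the L1 family and the most abundant of the list, was at 118 FPKM in HSF V30M against 96.7 in HSF WT. St8sia2, an enzyme that builds polysialic acid, had the largest ratio at 5.06 and 3.52, followed by Nfasc, a neurofascin of nodes and paranodes, at 73.9 and 56.5. Chl1, a close relative of L1cam found on Remak cells, had the smallest ratio at 17.1 and 21.3, followed by Nrcam at 16.1 and 19.9. The L1 family thus held ratios in both directions, each under 1.5-fold.

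Cdh2 codes for N-cadherin, a calcium-dependent adhesion protein of Schwann cell precursors and of unmyelinated fibres (chr18:16588877-16809246, minus strand). Its level was 13.3 FPKM in HSF V30M against 7.84 in HSF WT, 1.70-fold higher, with a log2 ratio of 0.69. About 1035 to 1583 fragments in HSF V30M and 434 to 758 in HSF WT stood behind these values, and the counting interval without a pseudocount was 0.60 to 0.93. Cdh19, a cadherin of Schwann cell precursors that persists in adult Schwann cells (chr1:110888326-110977584, minus strand), was at 36.3 and 37.6 FPKM. Its log2 ratio was -0.05, and with 2930 to 3456 and 2156 to 2904 fragments its counting interval of -0.13 to 0.03 left out a difference as large as that of Cdh2. The 2 cadherins of the set therefore differed from each other in their ratio by more than counting error.

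Other cadherin adhesion genes leaned slightly to higher values, as Cdh2 did: 9 of 9 passed the minimum, 7 were higher and 2 lower, and the median was 0.29. Cdh13, a cadherin anchored in the membrane without a cytoplasmic tail, was past the fold at 12.6 FPKM in HSF V30M against 8.02 in HSF WT. Cdh6, a cadherin of neural crest, was past it in the other direction at 0.530 and 2.05. Jup (plakoglobin) had the next largest ratio at 107 and 74.6, and Afdn (afadin) the next smallest at 26.2 and 33.7. Ctnnb1, the beta-catenin that binds cadherin tails and the most abundant of the list, was at 296 and 257. Most of the list, 7 of 9 genes, lay within 1.5-fold.

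Foxd3 had the largest ratio of the 10 genes. It codes for a forkhead transcription factor that keeps neural crest cells multipotent and is made in the Schwann cell lineage (chr4:99656299-99658622, plus strand, 1 transcript of 1 exon). Its level was 17.8 FPKM in HSF V30M against 6.55 in HSF WT, 2.72-fold higher, with a log2 ratio of 1.32. With about 821 to 969 fragments in HSF V30M and 214 to 290 in HSF WT, the log2 ratio without a pseudocount was 1.44 with a counting interval of 1.22 to 1.67. It stood at percentile 97.3 of all genes, and among genes with a mean FPKM of 10 to 30, the range that also holds Cdh2, 5.34% were past the fold with higher values. Foxd3 and Gfap stood in opposite order in the groups: the level of Foxd3 was 7.80 times that of Gfap in HSF V30M and 0.747 times in HSF WT.

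Other regulators of neural crest showed no such difference. Of 10 listed genes only 4 passed the minimum, 0 were past the fold and the median was -0.01. Zeb2, a zinc finger repressor also needed in Schwann cells, was the most abundant at 237 FPKM in HSF V30M against 254 in HSF WT. Sox9 was at 9.26 and 7.47, Snai1 at 3.37 and 3.14 and Twist1 at 4.93 and 5.56. Pax3, a factor of early crest and immature Schwann cells, was at 0.0400 and 0, and Tfap2a, which marks Schwann cell precursors, at 0.200 and 0.390. Pax3 and Tfap2a were thus near 0 in both groups, while Zeb2, Sox9, Twist1, Snai1 and Foxd3 itself were expressed in both.

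Ednrb codes for the endothelin receptor type B, through which endothelins act on Schwann cell precursors and on melanocyte precursors (chr14:103814625-103844402, minus strand). Its level was 5.53 FPKM in HSF V30M against 9.50 in HSF WT, 1.72-fold lower, with a log2 ratio of -0.69. About 296 to 554 fragments in HSF V30M and 362 to 772 in HSF WT gave a counting interval of -1.01 to -0.55 for the ratio without a pseudocount. The receptor is also made by endothelium and other cells of the nerve, so its source was not resolved here.

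Within the endothelin pathway the receptor and the processing enzymes went in opposite directions. Of 7 listed genes 5 passed the minimum. Their median was 0.03 (0.95 at a mean FPKM of at least 5, the value of Ece1 alone). Past the fold were 2 with higher values and 0 with lower values. The 2 genes code for endothelin-converting enzymes, which cut the precursor to the active peptide: Ece1 was at 82.7 FPKM in HSF V30M against 42.2 in HSF WT, and Ece2 at 5.28 and 2.92. The ligand gene Edn1 was at 3.65 and 3.56, Edn3 at 0.950 and 1.31, and Edn2 at 0 in both groups. Ednra, the other receptor, was at 3.67 and 4.42. Among melanocyte markers, read because Ednrb and Foxd3 also act in that lineage, 2 of 7 passed the minimum with a median of -0.14, and the summed FPKM of all 7 was 18.5 and 20.7. Mitf, the most abundant, was at 13.1 and 14.9, the pigment enzyme gene Tyr was at 0 in both groups, and the other marker above the minimum, Kit, was at 4.05 and 4.42.

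Dhh codes for desert hedgehog, a signal that Schwann cells send to the surrounding connective tissue and that shapes the perineurium (chr15:98891152-98898540, minus strand). It was the second most abundant of the 10 genes, at 90.5 FPKM in HSF V30M against 77.5 in HSF WT, 1.17-fold higher with a log2 ratio of 0.22. The counting interval was 0.08 to 0.37, so the values differed by more than counting error, though by less than 1.5-fold. Its fragment number, 972 to 9384 in HSF V30M and 591 to 6514 in HSF WT, is uncertain because its 2 annotated transcripts differ in length. Exons of Dhh overlap those of Rhebl1 (5.22 and 1.96 FPKM) on the same strand.

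Readouts of hedgehog signalling were close to equal. Ptch1, the receptor and a target of the pathway, was the most abundant of its genes at 82.8 FPKM in HSF V30M against 64.9 in HSF WT, a log2 ratio of 0.35, and the target Gli1 was at 27.9 and 26.9. Hhip, a target that binds the ligand, was at 0.480 and 0.656. Of 16 pathway genes 14 passed the minimum, 1 was past the fold with a higher and 2 with a lower value, and the median was -0.03. Shh, a related ligand, was the gene with the higher value (17.2 and 5.92), and Gas1, a coreceptor, came next at 7.28 and 4.84. Sufu, an inhibitor of the pathway (7.86 and 12.3), was among the genes with lower values, and Ihh was at 0 in both groups. Exons of Shh overlap the opposite-strand gene Gm26894, which was at 4.02 and 0.934, so the reads of the pair may not be separate. The ligand gene of the set, Dhh, was thus 1 of several pathway genes within 1.5-fold, and the difference in Shh exceeded it.

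Levels of the 10 genes spanned a wide range on the FPKM scale, which is per kilobase and so allows genes to be compared. S100b was 782-fold above Fabp7 in HSF V30M and 109-fold in HSF WT. In HSF V30M the order was S100b, Dhh, Cdh19, L1cam, Ncam1, Foxd3, Cdh2, Ednrb, Gfap and Fabp7. In HSF WT it was S100b, Dhh, Cdh19, Ncam1, L1cam, Ednrb, Gfap, Cdh2, Foxd3 and Fabp7. The upper 5 were the same genes in both groups, and the lower ranks differed, with Foxd3 at rank 6 in HSF V30M and rank 9 in HSF WT. Counting intervals of L1cam and Ncam1 overlapped in both groups (23.9 to 32.8 and 24.1 to 26.9 FPKM in HSF V30M), and in HSF WT so did those of the neighbours Ednrb (8.55 to 10.5) and Gfap (7.84 to 9.77), Gfap and Cdh2 (7.12 to 8.61), and Cdh2 and Foxd3 (5.70 to 7.48). The middle order in HSF WT is therefore not fixed by these counts, whereas in HSF V30M L1cam and Ncam1 were the only neighbours whose intervals overlapped.

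**Figure D2:**
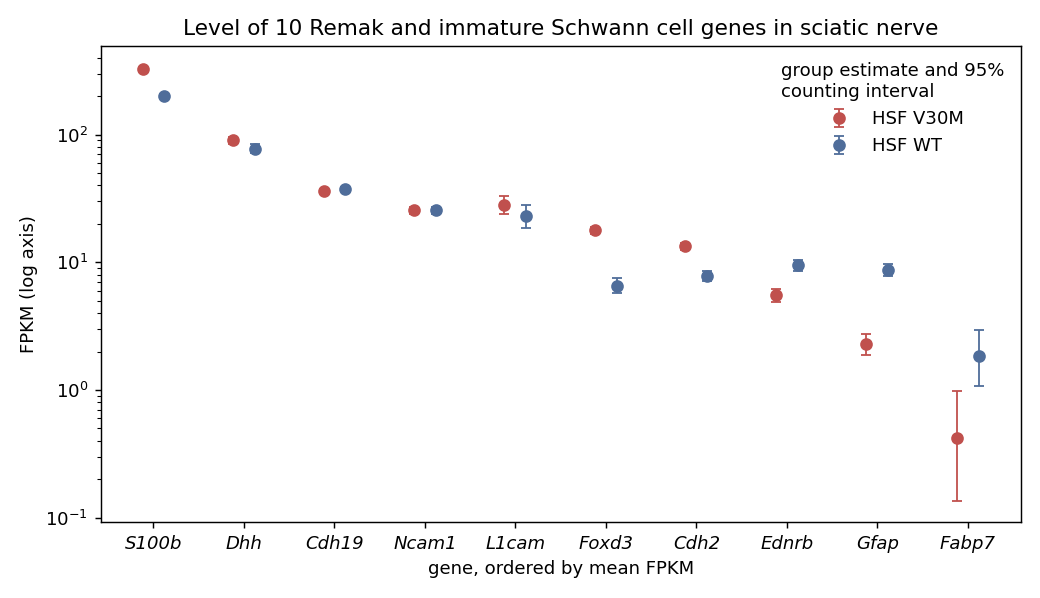
FPKM of each of the 10 genes on a log axis, in HSF V30M (red) and HSF WT (blue), ordered by mean FPKM. Points are the group estimates and bars their 95% counting intervals, which leave out the spread between mice. The bars of the groups lie apart for Foxd3, Cdh2, Ednrb, Gfap, Fabp7, S100b and Dhh, and overlap for Cdh19, Ncam1 and L1cam.

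The summed FPKM of the 10 genes was 548 in HSF V30M against 399 in HSF WT, but S100b alone made up 59.9% and 50.4% of these sums. Without S100b the sums were 220 and 198. A summed score over the set would therefore mostly follow S100b and would hide the lower values of Gfap, Fabp7 and Ednrb. Against all expressed protein-coding genes, the level of Gfap stood at percentile 34.0 in HSF V30M against 58.2 in HSF WT, and that of Foxd3 at 75.7 and 51.2.

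Few other genes of Remak and immature Schwann cells were past the fold. Of 20 listed genes, 17 passed the minimum, 0 were past the fold with higher values and 1 with a lower value, and the median was 0.10 (-0.04 at a mean FPKM of at least 5). Id2, an inhibitor of helix-loop-helix transcription factors, was the gene past the fold, at 9.66 FPKM in HSF V30M against 17.9 in HSF WT. Ngfr, the p75 neurotrophin receptor of Remak and immature cells, was at 32.7 and 40.0, Gap43, a growth-associated protein, at 1.91 and 2.70, and Scn7a, a sodium channel of Remak cells, at 40.2 and 44.1. These 3 Remak markers had lower values, as Gfap did, but each within 1.5-fold. Cnp, an enzyme of glial membranes, was the most abundant at 404 and 461. Sox10, the factor that defines the whole lineage, was at 75.7 and 54.8, and Jun and Sox2, which hold cells in the immature or repair state, were at 37.6 and 34.2 and at 2.60 and 2.36. Id4 (7.51 and 4.75) and Pou3f1, a factor of the stage before myelin (6.47 and 4.28), had the largest ratios.

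**Figure D3:**
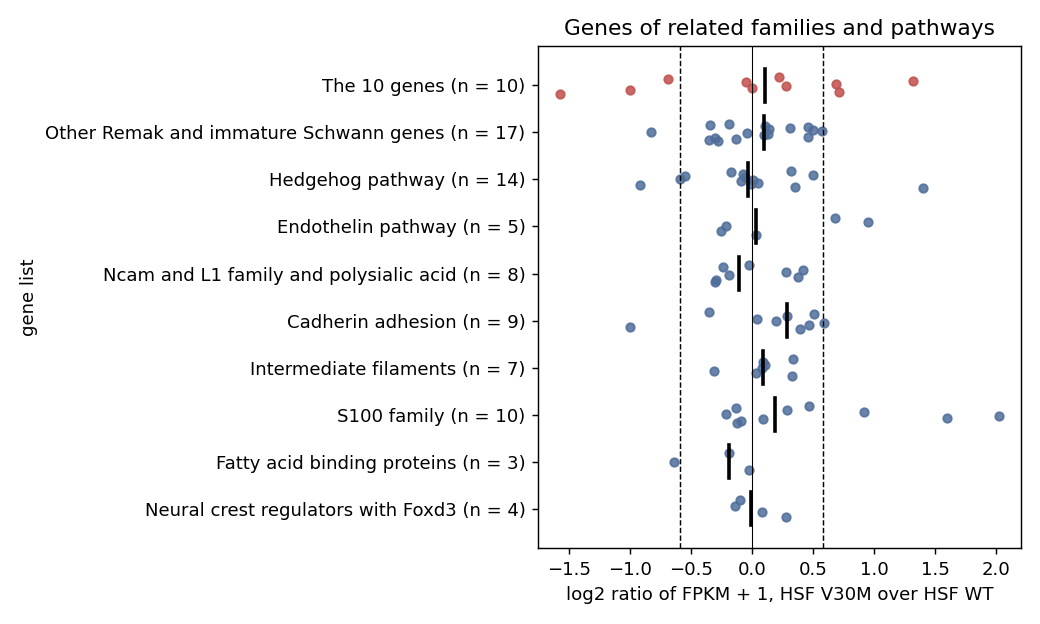
Log2 ratio of FPKM + 1, HSF V30M over HSF WT, for the 10 genes (red) and for those members of each related family or pathway that passed the minimum mean FPKM of 1 (blue). Each point is 1 gene, black bars are medians and dashed lines mark 1.5-fold. The list medians lie between -0.19 and 0.29 and that of the 10 genes is 0.11, and single genes reach 2.02 (S100a9) in the lists and -1.57 (Gfap) in the set.

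Markers of Schwann cells in other states were read against the set. Of the 10 myelinating markers all passed the minimum and 0 were past the fold, with a median of 0.13. Among 8 repair cell markers, 3 passed the minimum, 1 was past the fold (Shh, also the most abundant) and the summed FPKM of all 8 was 33.4 in HSF V30M against 21.0 in HSF WT. The higher S100b, Cdh2 and Foxd3 values thus stood beside myelin genes within 1.5-fold.

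Markers of other cell types follow, each with the median of those above the minimum and the summed FPKM of all listed. Of 10 skeletal muscle markers 7 passed the minimum and all 7 were past the fold with lower values in HSF V30M (median -1.44, summed FPKM 46.5 and 159, Ckm most abundant). All 4 B cell markers above the minimum, of 5, were lower past the fold (median -1.87, or -2.86 with a pseudocount of 0.1, summed FPKM 2.23 and 21.2, Cd79a most abundant). The adipocyte markers were lower in 8 of 8, with 2 past the fold (median -0.36, summed FPKM 2134.2 and 2822.5, Cfd most abundant). Conversely, 5 of 6 erythrocyte markers were past the fold with higher values (median 1.40, summed FPKM 291 and 101, Hbb-bs most abundant). Among 6 neutrophil markers 5 were past it with higher values and 1 with a lower value (median 1.76, summed FPKM 104 and 30.8, S100a9 most abundant). The neuron and axon list had 3 of 7 past the fold with higher values (median 0.56, or 0.98 at a mean FPKM of at least 5, summed FPKM 115 and 62.3, Uchl1 most abundant). Satellite glia, cells around neurons in ganglia that can make Gfap, were read by 3 markers, of which Apoe (1308.7 and 2599.5) and Kcnj10 (1.10 and 4.01) were lower past the fold and Glul (299 and 220) was not (median -0.99, or -0.28 at a mean FPKM of at least 5, summed FPKM 1608.7 and 2823.8). The levels of these markers thus differed between the groups along with those of the 10 genes, and their part in the differences of the 10 genes was not tested.

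The remaining lists lay nearer to equality. Endothelium, a known site of Ednrb, had 2 of 8 markers past the fold with higher values, Vwf (52.5 and 27.3) and Cldn5 (100 and 57.9), with a median of 0.25 and a summed FPKM of 357 and 277, led by Egfl7. Pericyte and smooth muscle markers had 1 of 7 higher, Rgs5 (32.7 and 19.5), and 2 lower, Tagln (472 and 1102.1) and Myh11 (17.0 and 26.3), with a median of 0.10 and a summed FPKM of 768 and 1370.5, mostly Tagln. Macrophage markers had 1 of 6 past the fold, Cd68 (15.5 and 30.9), with a median of -0.23 and a summed FPKM of 88.3 and 114, led by Csf1r. Of the 6 fibroblast and 4 perineurium markers, 0 were past the fold, with medians of -0.07 and 0.05 and summed FPKM of 2206.4 and 2267.0 (led by Dcn) and of 582 and 529 (led by Itgb4). No marker other than Tyr was at 0 in both groups. Their part in the values of the 10 genes was likewise not tested.

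**Figure D4:**
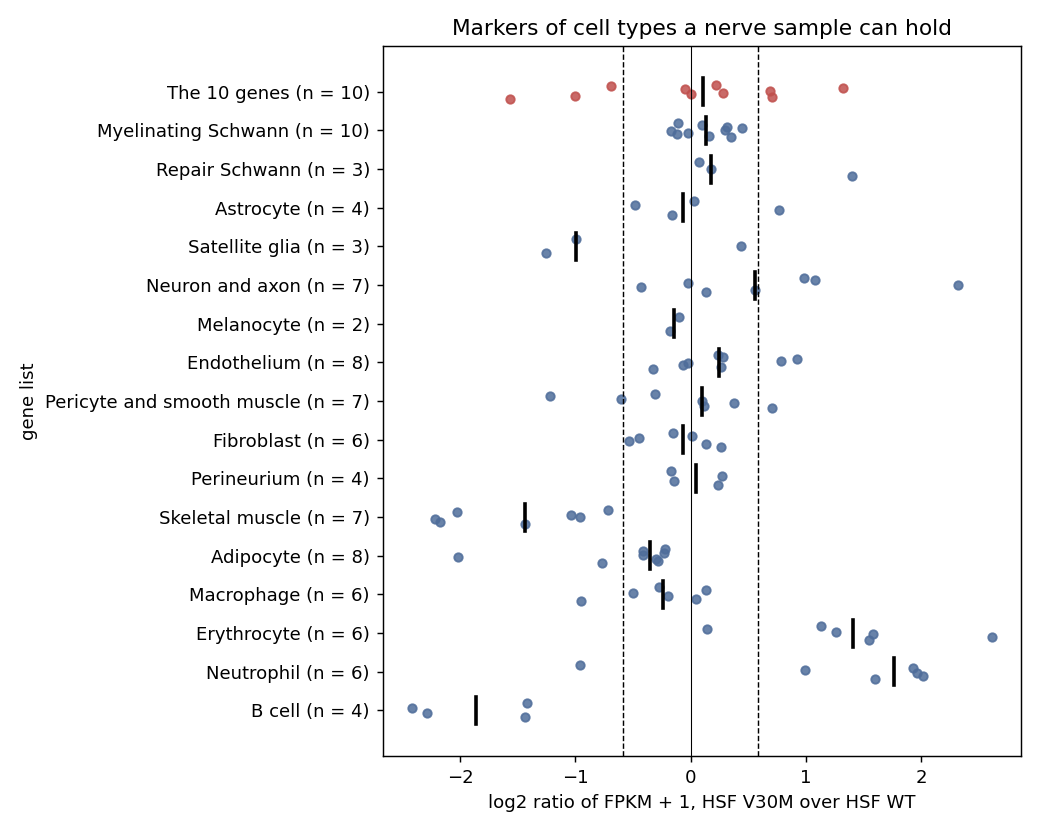
Log2 ratio of FPKM + 1, HSF V30M over HSF WT, for the 10 genes (red) and for those markers of each cell type that passed the minimum mean FPKM of 1 (blue). Each point is 1 gene, black bars are medians and dashed lines mark 1.5-fold. Medians of skeletal muscle (-1.44) and B cell (-1.87) markers lie far to the left, and those of erythrocyte (1.40) and neutrophil (1.76) markers far to the right.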

How the data were processed

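RNA of sciatic nerve was sequenced from Ion Torrent libraries, with the analysis done for the authors by a company, and the reads were aligned to GRCm38, the C57BL/6J genome. The submitters' processing notes name STAR, Cufflinks and Cuffdiff, with versions not given in the sources used here. The deposited table holds 1 FPKM per gene and group from the Cuffdiff run made for the authors, with decimal commas. Its columns of fold change, test statistic, p-value, q-value and significance hold the authors' comparison and were not used. Read counts were not used, and whether strand was counted is not given in the sources used here.

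From the deposited FPKM values, log2 ratios with a pseudocount of 1 were computed after 23 genes with too many alignments were left out. Of the genes, 21393 were at 0 in both groups. A gene was past the fold when (FPKM + 1) differed by over 1.5-fold at a mean FPKM of at least 1. The named genes are the 10 genes, partners known from biology, and from each list the most abundant gene, the 2 largest and 2 smallest ratios and markers at 0, of which the marker lists and quieter lists show only some. Some genes of the lists are not reported here. The rule for the 10 genes uses symbols alone, but these genes and the lists were chosen with earlier results of these data known.

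Depth was read from single-transcript genes, where FPKM times the transcript length less 200 bases, in kilobases, stood at the worth of 1 fragment. This worth was 0.0481 and 0.0647 in the HSF WT libraries (877 of 879 values within 1%). In the HSF V30M libraries it was 0.0390 and 0.0460. For HSF V30M, whose values have 2 decimals, no such share is given over its 1293 values. Its fragment numbers and intervals thus rest on a worth without this check. The lower end of a fragment number takes the shortest coding transcript and the shallower library, the upper end the longest transcript and the deeper library. Exact Poisson intervals of FPKM and exact conditional binomial intervals of ratios used the lower number, at 95%. Transcripts, gene types and positions are from GENCODE M21 of GRCm38, which may differ from the authors' annotation, and promoters from RefSeq GRCm38.p6. Calculations ran in Python 3.11.15 with scipy 1.17.1, pandas 2.3.3 and numpy 2.4.6, figures were drawn with matplotlib 3.10.9, and the steps were tested on simulated data. Alternatives were the pseudocount, median-of-ratios scaling, the minimum, the fold, the gene type and the transcript.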

Additional observations from a re-analysis of the deposited data

How the results depend on the processing

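The 9 genes off equality kept their direction with a pseudocount of 0.1, with none and with median-of-ratios scaling, Ncam1 was at equality to 2 decimals in each, and scaling left the order of levels as it was. The ratio of Gfap was larger with a pseudocount of 0.1 (-1.90) or none (-1.94), by construction, and Fabp7 reached -1.90 and -2.13. The setting without a pseudocount was chosen after seeing the data. With a fold over 2, 1 gene was higher, Foxd3, in place of 3, and 2 in place of 3 were lower. A mean FPKM of at least 5 left 2 lower. Among all genes, 732 were higher and 646 lower with a mean of at least 5, 621 and 616 with a fold over 2, and 639 and 676 among protein-coding genes, in place of 1284 and 1319, each a narrower count by construction. No minimum gave 1768 and 1838.

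By leaving fewer genes, a mean of at least 5 moved the median of the endothelin list from 0.03 to 0.95 (Ece1 alone). The same minimum likewise moved that of the fatty acid binding proteins from -0.19 to -0.42 and of the other Remak genes from 0.10 to -0.04. It moved 9 of the list medians by over 0.1, among them satellite glia (-0.28), repair Schwann (0.73), neuron and axon (0.98), skeletal muscle (-1.73), erythrocyte (1.55) and neutrophil (1.96), and left no B cell gene. A pseudocount of 0.1 moved 5 medians away from 0, to -2.86 for B cell, -1.54 for skeletal muscle, 1.59 for erythrocyte and 1.95 for neutrophil, the remaining 1 being neuron and axon. No minimum moved 3 towards 0, to -1.44 for B cell, -1.00 for skeletal muscle and 0.38 for neuron and axon. With the shortest coding transcript, fragments in HSF V30M and HSF WT were 1146 and 796 for Dhh, 350 and 487 for Ednrb, 191 and 126 for L1cam and 1520 and 1233 for Ncam1.

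No paired analysis was possible because each gene has a single FPKM per group and none per mouse, and so no replicate was left out. Fabp7, with few fragments, is the gene most limited by depth.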
